A study of Mus musculus with 4 samples.

Results

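The Myc, Max and Mxd network was followed in 3 cultures of mouse embryonic stem cells (mESCs) and in 1 culture of trophoblast stem cells (TSCs). Its members were taken by gene symbol, and the rule that lists them uses no measured value. They were nevertheless chosen with earlier results of these data known. The members are the activators Myc, Mycn and Mycl1, their shared partner Max, the antagonists Mxd1, Mxd3, Mxd4, Mxi1 and Mnt, and the Max-like factor Mlx, which makes 10 of the 37620 genes counted. All 10 reached at least 1 CPM (count relative to the scaled library total) in at least 1 sample, as did 14263 genes in all.

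Proteins of this network bind DNA as pairs through a basic helix-loop-helix leucine zipper. Myc, Mycn and Mycl1 pair with Max, bind the E-box CACGTG and activate genes of ribosome production, nucleotide synthesis and metabolism, whereas Mxd proteins, Mxi1 and Mnt compete for Max at the same sites and recruit Sin3 corepressors. In mESCs, Myc or Mycn activity maintains proliferation and biosynthesis, and the joint loss of both is known to place the cells in a dormant state. Glycogen synthase kinase-3 (GSK3) marks the Myc protein for degradation. Protein was not measured here.

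Each condition was represented by 1 RNA-seq library. R1 mESCs, a single embryonic stem cell line grown without feeder cells in serum-containing medium, were cultured for 2 days under 3 conditions. In 2i−L (labelled 2i), LIF was left out and the medium held 3 µM CHIR99021, which blocks GSK3, together with 1 µM PD0325901, which blocks MEK. In 2iJ (labelled 2i-Jaki), a JAK inhibitor at 2 µM was added to those agents. In 2iJ+B−A (labelled 2i-Jaki-BMP-Alk5i), the 2iJ medium also held BMP4 at 10 ng/ml and ALK5 inhibitor II, an inhibitor of Activin and Nodal receptors, at 10 µM. The fourth library came from TSCs of the F4 line, labelled day 2 as well, which differ from the mESCs in line and medium as well as in cell type, so that these cannot be told apart. The comparisons address how the network stood after JAK inhibition, after BMP4 with ALK5 inhibition, and in a reference trophoblast line.

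Libraries held between 33913984 and 36964392 counts on genes, and 3 counts corresponded to 0.0799 to 0.0902 CPM. With 1 library per condition no difference has a replicate check, no p-value is given, and the 95% intervals cover counting error only. A gene was called higher or lower at a log2 ratio of CPM + 0.5 of at least 1 in size. Where 4 values stand in a row without names, their order is that of the conditions above. In bulk RNA, fewer cells of a type and less RNA per cell cannot be told apart. Readouts of the added agents moved between libraries: the STAT3 target Socs3 stood at 4.90, 0.990, 3.86 and 40.8 CPM in 2i−L, 2iJ, 2iJ+B−A and TSC, and the BMP target Id1 at 6.41, 8.01, 91.6 and 24.4 CPM. Summed over 6 mESC markers, the level was 3770, 3190, 2130 and 528 CPM in the same order, and over 7 TSC markers 751, 644, 575 and 1600 CPM. Esrrb, which is on both lists, made up 578.3, 476.4, 302.3 and 247.6 CPM of each sum. Of the 7 TSC markers, 3 were called higher in 2iJ+B−A against 2iJ (Hand1 at 5.84, Cdx2 at 2.24 and Gata3 at 1.31) and 1 lower (Eomes at −1.78). Over all genes 5.81% were called higher and 3.17% lower in that comparison. Elf5, a defining TSC marker, was at or under 3 counts in 2i−L and 2iJ, at 5 counts (0.133 CPM) in 2iJ+B−A and at 298 CPM in TSC. Fibroblast markers summed to 3.50 CPM in TSC, with 3 of 7 at 0 counts, and to 21.1 to 37.6 CPM in the mESCs. Primitive endoderm markers summed to 4.69, 4.75, 17.2 and 29.1 CPM, and 5 differentiated trophoblast markers to 1.89, 5.82, 28.4 and 6.04 CPM. Of these, Gcm1, a syncytiotrophoblast factor, stood at 1.44, 5.62, 28.0 and 0.399 CPM and Syna at 0.451, 0.204, 0.373 and 3.67 CPM, while Prl3d1, Prl2c2 and Tpbpa were at 0 counts in the 3 mESC cultures. The part of these cell types in the results below was not tested.

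Sequences of the members are shown because they bear on how the members can be told apart and on what they share. The first lines give the longest exact runs that 2 activators have in common in their coding sequence.
Myc and Mycl1, within Myc box I, which holds the degradation signal read by GSK3 and Fbxw7: atctggaagaaattcgagctg
Mycl1 and Mycn, within Myc box II, which recruits the coactivator Trrap: gactgcatgtggagcggcttctc
The run of Myc and Mycl1 has 21 bases and that of Mycl1 and Mycn 23 bases, so that read pairs of the 3 activators are distinguishable. Aligned to NCBIM37, the transcripts of Myc and Mycl1 matched no place but their own, whereas 25.7% of the Mycn transcript had a match elsewhere at 81.3% identity. The Max transcript was the most repeated, with 75.7% of it matched elsewhere at 85.6% identity, and 40.0% of Mxi1 matched the locus of Gm13735 at 91.7% identity. Of the Mnt transcript 20.7% matched elsewhere at 90.7% identity, and of Mxd3 7.84% at 99.0%. Levels of members with such matches may be less certain than those of Myc. The effect of the matches on the counts was not tested.

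The next lines give the promoters of members that hold the E-box CACGTG, the site these proteins themselves bind. The window ran from 250 bases before to 50 bases after the RefSeq start site (build GRCm38.p6), and the motif reads the same on both strands. The table held 11 promoters of 9 members, with no entry for Myc. The E-box was found in 4 of those 11 promoters (36.4%), each of another member, and in 2349 of all 32851 promoters (7.15%). The E-box is in capitals in the 300 bases of each.
Mxd4, chr5:34187661-34187960, minus strand: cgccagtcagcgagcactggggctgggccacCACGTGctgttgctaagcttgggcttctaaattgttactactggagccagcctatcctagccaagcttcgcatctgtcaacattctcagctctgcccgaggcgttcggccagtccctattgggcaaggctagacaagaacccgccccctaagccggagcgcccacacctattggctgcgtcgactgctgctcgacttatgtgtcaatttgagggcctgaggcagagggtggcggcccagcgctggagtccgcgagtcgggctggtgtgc
Mnt, chr11:74830674-74830973, plus strand: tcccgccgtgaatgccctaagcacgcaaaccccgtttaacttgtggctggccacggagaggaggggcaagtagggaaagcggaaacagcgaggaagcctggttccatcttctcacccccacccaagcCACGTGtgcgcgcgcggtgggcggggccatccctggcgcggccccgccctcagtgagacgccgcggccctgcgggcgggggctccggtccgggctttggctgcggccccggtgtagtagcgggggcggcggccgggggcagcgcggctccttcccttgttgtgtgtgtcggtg
Mlx, chr11:101087040-101087339, plus strand: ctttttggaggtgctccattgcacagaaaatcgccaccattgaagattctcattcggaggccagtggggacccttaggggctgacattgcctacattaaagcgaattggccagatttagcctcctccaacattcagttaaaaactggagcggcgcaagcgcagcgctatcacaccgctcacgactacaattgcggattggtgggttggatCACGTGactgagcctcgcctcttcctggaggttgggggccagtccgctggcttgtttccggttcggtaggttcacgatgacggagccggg
Max, chr12:76962199-76962498, minus strand: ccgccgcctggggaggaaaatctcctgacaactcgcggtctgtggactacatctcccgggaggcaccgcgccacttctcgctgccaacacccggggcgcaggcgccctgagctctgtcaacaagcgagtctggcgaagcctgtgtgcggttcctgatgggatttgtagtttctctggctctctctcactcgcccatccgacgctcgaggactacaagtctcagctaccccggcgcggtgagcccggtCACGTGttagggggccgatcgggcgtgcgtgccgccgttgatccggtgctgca
The E-box began at base 32 of the window in Mxd4, 128 in Mnt, 211 in Mlx and 248 in Max, the last spanning the start site. A match is a description of these letters and not of binding. Mxd4 was the one of these 4 genes that was called in any comparison among the mESCs, whereas Mnt had the most even level of all members.

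Myc itself (ENSMUSG00000022346, NCBIM37 chr15:61816946-61821929, plus strand) spanned the widest range. Its counts were 163 (2i−L), 278 (2iJ), 907 (2iJ+B−A) and 3455 (TSC), or 4.90, 8.10, 24.1 and 98.4 CPM. No pair of conditions had overlapping counting intervals, and the highest level was 20.1 times the lowest. The log2 ratio was 0.67 (95% counting interval 0.41 to 0.93) for 2iJ against 2i−L, which did not reach the threshold. It was 1.52 (1.33 to 1.71) for 2iJ+B−A against 2iJ and 3.52 (3.36 to 3.70) for TSC against 2iJ. Against 2iJ+B−A, Myc in TSC was still higher by a log2 ratio of 2.01 (1.90 to 2.11).

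Mycn (ENSMUSG00000037169, chr12:12942902-12948720, minus strand), the paralog that is abundant in early embryonic tissue, was lowest in TSC, where Myc was highest. Its counts were 3194, 4187, 2746 and 920 in 2i−L, 2iJ, 2iJ+B−A and TSC, which gave 96.0, 121.9, 73.1 and 26.2 CPM. The highest level was in 2iJ, and both Mycn and Myc stood higher in 2iJ than in 2i−L. The log2 ratio was 0.34 (0.28 to 0.41) for 2iJ against 2i−L and −0.73 (−0.80 to −0.66) for 2iJ+B−A against 2iJ, neither of them called. In TSC against 2iJ it was −2.20 (−2.30 to −2.10).

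Mycl1 (ENSMUSG00000028654, chr4:122672895-122679728, plus strand), the third paralog, varied little among the mESC cultures. It stood at 34.3, 39.2 and 32.4 CPM in 2i−L, 2iJ and 2iJ+B−A and at 9.46 CPM in TSC, from 1142, 1345, 1217 and 332 counts. Its levels in 2i−L and 2iJ+B−A were not separated by their counting intervals. In TSC against 2iJ the log2 ratio was −1.99 (−2.16 to −1.83).

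**Figure D1:**
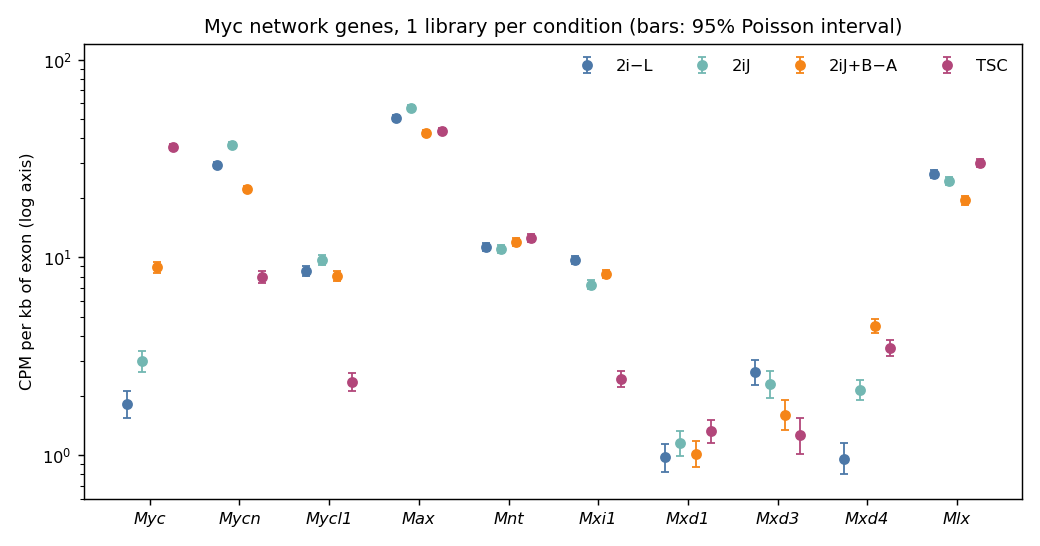
Level of each network gene in CPM per kb of exon on a log axis, 1 point per library, with 95% exact Poisson intervals of the counts. Myc spans 1.80 to 36.2 CPM per kb from 2i−L to TSC, Mycn, Mycl1 and Mxi1 are lowest in TSC, and the 4 points of Max and of Mnt lie close together.

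Set per kb of exon, so that genes can be compared with each other, the sum of the 3 activators differed less between libraries than its makeup. Their summed level was 39.5, 49.7, 39.1 and 46.5 CPM per kb in 2i−L, 2iJ, 2iJ+B−A and TSC. The highest sum was 1.27 times the lowest, beside 1.3 for the summed antagonists and 1.34 for Max. Within that sum, Myc contributed 4.57%, 5.99%, 22.7% and 77.9%. Mycn contributed 73.9%, 74.5%, 56.8% and 17.1%, and Mycl1 21.5%, 19.5%, 20.5% and 5.03%. Mycn was thus the main paralog transcript in all 3 mESC cultures, and Myc in TSC.

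The ratio of Myc to Mycn within a library does not depend on scaling between libraries. Per kb of exon it was 0.0618 (0.0525 to 0.0724) in 2i−L and 0.0804 (0.0710 to 0.0909) in 2iJ. It was 0.400 (0.371 to 0.432) in 2iJ+B−A and 4.55 (4.23 to 4.90) in TSC. Between 2iJ and 2iJ+B−A, Mycn went from 12.4 times to 2.50 times the level of Myc, as Myc was higher and Mycn lower at once. The ratio in 2iJ+B−A lay between those of 2iJ and TSC, and its interval overlapped neither. In TSC the order of the paralogs was turned, and the span from 2i−L to TSC was 73.6-fold.

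**Figure D2:**
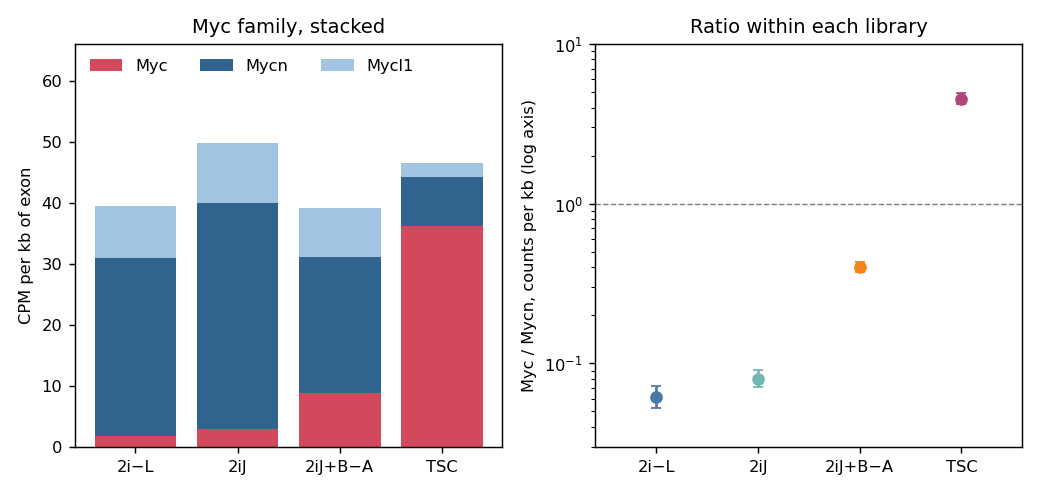
Left, CPM per kb of exon of Myc, Mycn and Mycl1 stacked for each library; right, the ratio of Myc to Mycn counts per kb on a log axis with its 95% counting interval, with a dashed line at 1. The stack is 39.1 to 49.7 high throughout, while the ratio goes from 0.0618 in 2i−L to 4.55 in TSC.

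Max (ENSMUSG00000059436, chr12:78038256-78063235, minus strand), the partner through which Myc proteins bind DNA, was the member with the highest level per kb in every library. It stood at 101.7, 114.7, 85.7 and 87.5 CPM in 2i−L, 2iJ, 2iJ+B−A and TSC, with the last pair not separated. Per kb this was 50.7, 57.2, 42.7 and 43.7 CPM. The summed activators came to 0.778, 0.869, 0.915 and 1.07 times Max. In TSC, Myc alone ranked second, at 36.2 CPM per kb, with Max 1.21 times as high (1.15 to 1.27), and Mycn ranked below Mlx and Mnt at 7.96 CPM per kb. In the mESC cultures Mycn ranked second and Myc stood below Mnt, Mxi1 and Mycl1 in 2i−L and 2iJ, while in 2iJ+B−A it came next after Mnt and was not separated from Mxi1.

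Among the antagonists, Mnt (ENSMUSG00000000282, chr11:74644422-74659227, plus strand), the constitutive antagonist of Myc, had the most even level of all members. It stood at 52.0, 51.0, 55.4 and 58.1 CPM in 2i−L, 2iJ, 2iJ+B−A and TSC, and the highest was 1.14 times the lowest. Ranked by level, no condition was separated from the next by its counting interval. Over wider steps, 2iJ+B−A was separated from 2iJ (0.12, interval 0.027 to 0.21), and TSC from 2iJ (0.19) and from 2i−L (0.16). Mxi1 (ENSMUSG00000025025, chr19:53384996-53450300, plus strand), a Mxd family repressor, stood at 54.7, 40.8, 46.3 and 13.6 CPM. Its log2 ratio was −0.42 (−0.52 to −0.32) for 2iJ against 2i−L and −1.55 (−1.69 to −1.40) for TSC against 2iJ.

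Mxd4 (ENSMUSG00000037235, chr5:34516536-34530369, minus strand), a Mxd repressor linked to exit from the cell cycle, was the member called in both comparisons among the mESCs. It had 124, 285, 656 and 474 counts in 2i−L, 2iJ, 2iJ+B−A and TSC, or 3.73, 8.30, 17.5 and 13.5 CPM. The 4 levels did not overlap, and the highest was in 2iJ+B−A rather than in TSC. The log2 ratio was 1.06 (0.78 to 1.34) for 2iJ against 2i−L and 1.03 (0.84 to 1.22) for 2iJ+B−A against 2iJ. Both intervals reach below the threshold, and with a pseudocount of 2 CPM neither was called (0.85 and 0.92). From 2i−L to 2iJ+B−A the log2 ratio was 2.09.

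Mxd1 (chr6:86597038-86619153, minus strand), induced in many tissues as cells differentiate, stood at 4.54, 5.36, 4.74 and 6.15 CPM. Ranked by level, no condition was separated from the next, although TSC was separated from 2iJ+B−A (0.34, interval 0.077 to 0.61) and from 2i−L (0.40). Mxd3 (chr13:55426529-55431119, minus strand), the Mxd member found in dividing cells, stood at 5.47, 4.75, 3.33 and 2.62 CPM, with a log2 ratio of −0.75 (−1.08 to −0.42) for TSC against 2iJ. Mxd3 shares 104 bases with Prelid1 on the other strand, and counting was by strand. Mlx (chr11:100948591-100953521, plus strand), which pairs with the glucose sensors Mlxip and Mlxipl and with Mnt and Mxd proteins but not with Myc, stood at 52.7, 48.8, 38.8 and 60.1 CPM. Mlx overlaps Psmc3ip on the other strand by 385 bases.

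The 5 antagonists summed to 25.5, 23.8, 27.3 and 21.0 CPM per kb in 2i−L, 2iJ, 2iJ+B−A and TSC. The 3 activators stood at 1.55, 2.09, 1.43 and 2.21 times that sum. Mnt made up 44.0%, 46.2%, 43.8% and 59.7% of the antagonists. The share of Mxi1 was 38.1%, 30.5%, 30.2% and 11.5%, and that of Mxd4 3.76%, 8.97%, 16.5% and 16.5%. As among the activators, sums of antagonists varied less than their makeup.

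**Figure D3:**
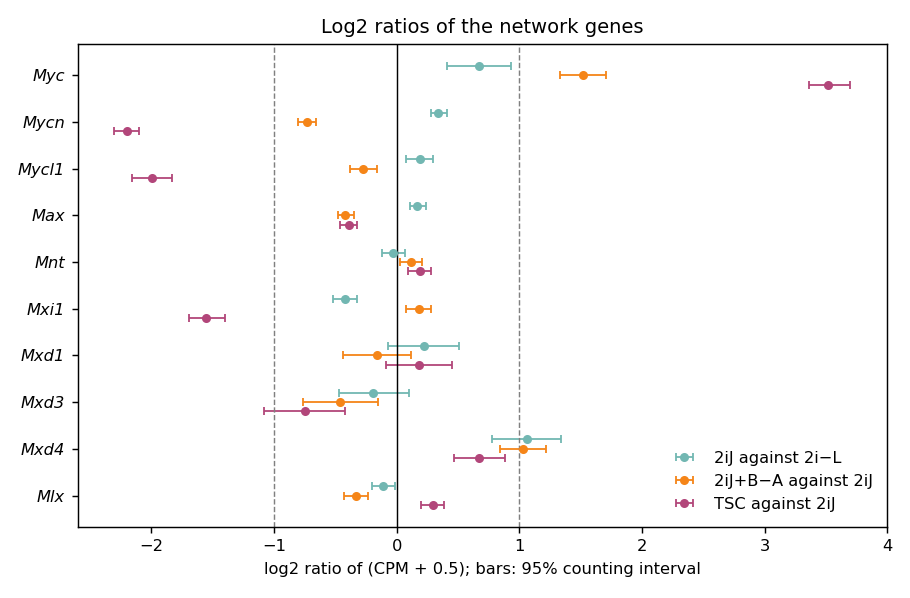
Log2 ratio of CPM + 0.5 for each network gene in 3 comparisons, with 95% counting intervals; dashed lines mark the threshold of 1 in size. Myc lies at 0.67, 1.52 and 3.52, Mycn at 0.34, −0.73 and −2.20, and the points of Mnt and Mxd1 stay near 0.

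Counted over the network, 1 of 10 members was called higher in 2iJ against 2i−L (Mxd4) and 0 were called lower, whereas over all 14263 genes 1.23% were called higher and 0.918% lower. In 2iJ+B−A against 2iJ, 2 were called higher (Myc and Mxd4) and 0 lower, beside 5.81% and 3.17% of all genes. In TSC against 2iJ, 1 was called higher (Myc) and 3 lower (Mycn, Mycl1 and Mxi1), beside 19.4% and 17.6%. The same 4 genes were called in TSC against 2iJ+B−A, beside 16.4% and 16.2% of all genes. With 10 members, shares of the network are coarse, and those in the TSC comparisons are near the background. The comparisons share libraries, 2iJ entering 3 of the 4 and TSC 2, and so are not independent of each other.

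Other proteins of the extended network were followed as well. Mga, which pairs with Max and represses germline genes in mESCs, stood at 359.3, 361.2, 287.7 and 188.3 CPM, with a log2 ratio of −0.94 for TSC against 2iJ. Bmyc, a truncated Myc relative, stood at 5.92, 3.90, 7.27 and 16.6 CPM and was called higher in TSC against 2iJ at 1.95. Bmyc and Myc were thus both highest in TSC, and the longest exact run they share in coding sequence has 23 bases. Mlxipl, a glucose-responsive partner of Mlx, stood at 8.33, 5.85, 10.9 and 3.53 CPM, and Mlxip at 41.4, 49.4, 54.9 and 59.0 CPM. Mycs had 0 counts in 3 libraries and 1 in 2iJ+B−A. Pvt1, the noncoding gene next to Myc, stood at 6.59, 6.49, 4.79 and 18.8 CPM. Of the 3 comparisons in which Myc was called higher, Pvt1 was called higher in 2, at 1.46 in TSC against 2iJ and 1.87 in TSC against 2iJ+B−A, and stood at −0.40 in 2iJ+B−A against 2iJ.

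Of 11 coactivators of Myc, 0 were called in 2iJ against 2i−L, beside 1.23% of all genes called higher and 0.918% lower. In 2iJ+B−A against 2iJ 0 were called as well, beside 5.81% and 3.17%. In TSC against 2iJ 2 were called lower, where 17.6% of all genes were called lower. All 3 counts are near the background. The 2 called lower in TSC were Actl6a, a subunit of chromatin remodelling and acetylation complexes, at −1.41 and Wdr5, which holds Myc on chromatin, at −1.16. The median log2 ratio of the 11 was −0.58 in TSC against 2iJ, beside 0.0027 over all genes. Of 6 corepressors and partners of the antagonists, Sin3b, a scaffold bound by Mxd proteins and Mnt, was called higher in TSC against 2iJ at 1.69, and the deacetylase Hdac1 lower at −1.27. With 19.4% of all genes called higher and 17.6% lower, 1 of 6 each way is near the background. Sin3a, the other scaffold, stood at −0.73. In CPM, Sin3b went from 137.5, 169.0 and 183.4 in the mESCs to 547.9 in TSC, and Sin3a from 264.7, 267.2 and 218.3 to 160.5.

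Of 11 genes that set the stability of the Myc protein, 3 were called lower in TSC against 2iJ and 0 higher, beside 17.6% and 19.4% of all genes. Usp28, a deubiquitinase that counters Fbxw7 on Myc, stood at 170.2, 193.0, 116.6 and 12.8 CPM, a log2 ratio of −3.86 in TSC against 2iJ. The ubiquitin ligase subunits Skp2 and Btrc were at −1.41 and −1.09. Fbxw7, which recognises a degradation signal in Myc box I, stood at 46.9, 51.6, 44.5 and 39.7 CPM, and Gsk3b at 96.7, 110.4, 114.1 and 113.8 CPM. In 2iJ against 2i−L and in 2iJ+B−A against 2iJ, 0 of the 11 were called. Over all genes 1.23% were called higher and 0.918% lower in the former, and 5.81% and 3.17% in the latter. With 11 genes, 0 called is near the background.

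Targets that Myc proteins activate were followed through a list of 38 genes of ribosome assembly, nucleotide and polyamine synthesis, glycolysis and the cell cycle. In 2iJ against 2i−L, 0 were called, beside 1.23% of all genes called higher and 0.918% lower. Of the 38, 18 lay above 0 and 20 below, and the median log2 ratio was −0.018, beside 0.0049 over all genes. Among targets with at least 10 CPM, the largest ratios in size were −0.86 for the hexokinase Hk2, −0.75 for lactate dehydrogenase Ldha, −0.63 for the serine hydroxymethyltransferase Shmt2 and 0.38 for the pyrimidine synthesis enzyme Cad.

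Where 2iJ+B−A was set against 2iJ and Myc was called higher, 34 of the 38 targets lay below 0 and the median was −0.27, beside 7163 of 14263 genes below 0 and a median of −0.0023. A shift below 0 was not particular to the targets. The 11 coactivators had a median of −0.21, with 9 below 0, and the 11 stability genes −0.19, with 7 below 0. The corepressors and partners had a median of 0.042, and the other proteins of the extended network 0.48. The cyclin Ccnd2 was the 1 target called, from 5.18 to 23.1 CPM at 2.05, and 0 were called lower. Over all genes 5.81% were called higher and 3.17% lower, so that these counts are near the background. Ldha went from 977.5 to 489.0 CPM, just short of the threshold, and Hk2 from 151.4 to 82.1 CPM at −0.88. The polyamine enzyme Odc1, a classical Myc target, stood at −0.62. The level of Mycn was lower in the same comparison, and the sum of the 3 activators went from 49.7 to 39.1 CPM per kb.

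In TSC against 2iJ, where Myc was higher by a log2 ratio of 3.52 and the sum of the activators went from 49.7 to 46.5 CPM per kb, 9 targets were called lower and 0 higher, beside 17.6% and 19.4% of all genes. The median was −0.60, and 34 of 38 lay below 0, beside 0.0027 and 7112 of 14263 over all genes. Here too a shift below 0 was not particular to the targets. The 11 coactivators had a median of −0.58, with 10 below 0, and the 11 stability genes −0.39, with 8 below 0. The 6 corepressors and partners had a median of −0.46, with 5 below 0, and the 6 repressed targets 0.28. Dkc1, the pseudouridine synthase of ribosomal and telomerase RNA, went from 377.8 to 77.9 CPM at −2.27. Cad went from 582.2 to 160.7 CPM at −1.85, and the mitochondrial chaperones Hspe1 and Hspd1 were at −1.61 and −1.44. In TSC against 2iJ+B−A, 5 targets were called lower and 1 higher, beside 16.2% and 16.4% of all genes, with a median of −0.32, beside 0.0032 over all genes, and 27 of 38 below 0. The target called higher was Tert, the telomerase catalytic subunit, at 1.38, from 10.3 to 27.6 CPM, while Ccnd2 was at −4.15. The E-box stood in 11 of the 37 promoters that the table held for activated targets (29.7%), beside 7.15% of all promoters. These 37 promoters cover 31 of the 38 targets, of which 10 hold the motif.

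Of 6 genes that Myc represses, Ndrg1, a stress and differentiation gene, stood at 29.7, 13.3, 59.9 and 225.3 CPM. It was called lower in 2iJ against 2i−L at −1.13 and higher in 2iJ+B−A against 2iJ at 2.13 and in TSC against 2iJ at 4.03. Cebpa, a differentiation factor, stood at 1.20, 1.19, 11.2 and 8.23 CPM. Gadd45a, a growth arrest gene, stood at 9.41, 14.1, 7.08 and 8.15 CPM, with log2 ratios of −0.94 in 2iJ+B−A against 2iJ and −0.75 in TSC against 2iJ. Cdkn2b, a cell cycle inhibitor, stood at 2.50, 4.25, 3.83 and 6.69 CPM. Of the 6, 3 lay above and 3 below 0 in 2iJ+B−A against 2iJ and in TSC against 2iJ. In each of these 2 were called higher and 0 lower, beside 5.81% and 19.4% of all genes called higher. In 2iJ against 2i−L, 1 was called lower and 0 higher, beside 0.918% of all genes called lower. The cell cycle inhibitors Cdkn1a and Cdkn1b stood at −0.37 and 0.06 in 2iJ+B−A against 2iJ and at −0.49 and −0.047 in TSC against 2iJ, and neither was called in any of the 4 comparisons.

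**Figure D4:**
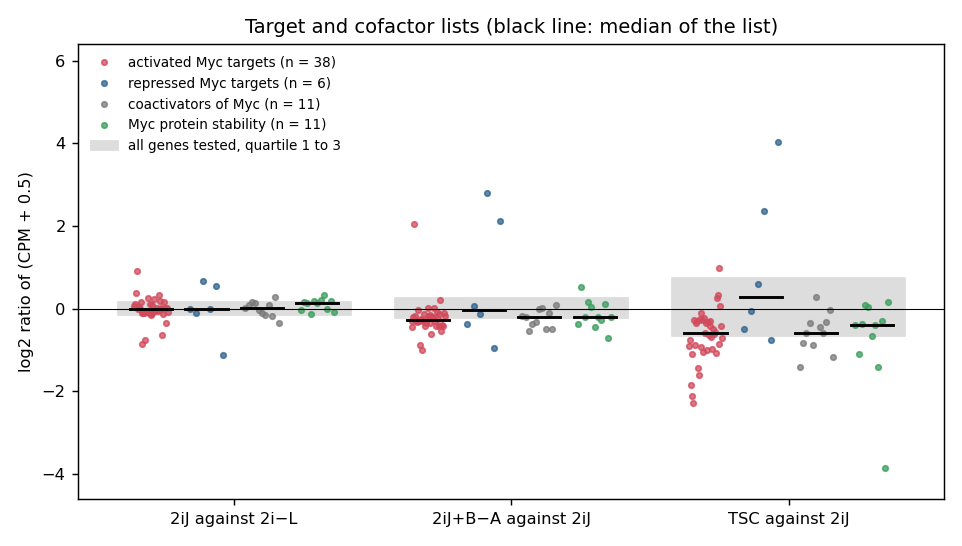
Log2 ratio of CPM + 0.5 of the genes of 4 lists in 3 comparisons, 1 point per gene, with the list's median as a black line and the quartiles of all genes tested as a grey band. The median of the 38 activated targets goes from −0.018 to −0.27 and −0.60 from left to right, and Ndrg1 and Cebpa are the high points among the repressed targets in the last 2 comparisons.

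Among 10267 genes with at least 10 CPM in a sample, the 5 whose mean-centred log2 profile over the 4 libraries differed least from that of Myc were Col4a2, Tmem125, Shroom1, Serinc2 and Stard10, with a largest difference of 0.14 to 0.21. Col4a2, a basement membrane collagen, stood at 34.9, 46.3, 152.0 and 565.0 CPM. The 5 nearest to Mycn were Abi2, Lima1, Rap1gap, Cpeb1 and Zscan10, at 0.11 to 0.17. Zscan10, a transcription factor of mESCs, stood at 92.5, 104.0, 71.7 and 27.2 CPM, beside 96.0, 121.9, 73.1 and 26.2 CPM for Mycn. Each of these profiles rests on 4 points.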

How the data were processed

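Poly-A RNA of 4 samples was sequenced, 1 per condition. Per the labels and methods, the authors trimmed adapters and bases under a quality limit, mapped the read pairs to NCBIM37 with STAR 2.4.2a after base calling with CASAVA 1.8.2, and deposited raw counts of read pairs per gene. The annotation release is not given in the sources used here, and the ComBat adjustment of the paper is not in the deposited counts. STAR counts pairs that map to 1 place, and 6.72% to 7.01% mapped to several. Rows that name no gene held 16.42% to 17.77% of the pairs and were left out.

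The count of a reverse-stranded library (column 4) was used, which was 29.1 to 32.1 times that of the other strand. Counts were scaled by TMM factors of 0.969 to 1.035 (edgeR 4.0.16, R 4.3.3) to CPM. For log2 ratios 0.5 CPM was added to each value, a pseudocount that understates changes of low genes, and the 14263 genes that reached 1 CPM anywhere entered. Their 95% intervals are Clopper–Pearson intervals of the split of the counts. No model with replicates could be fitted, so no test was made. Levels per kb used the union of exons in an NCBIM37 annotation that holds 37205 of the 37620 identifiers. Transcripts were aligned to the genome with minimap2 2.31, and Python 3.11.15 was used otherwise. The scripts were tested on simulated counts.

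The members and lists were chosen with earlier results of these data known. Named were all members, up to 4 genes of each list and comparison with the largest ratio in size at 10 CPM or more, genes of lists of 6 or fewer, neighbours in locus or sequence, and the 5 genes most like Myc or Mycn. Fbxw7 was named outside that rule, after its values were seen. Alternatives were the unstranded count, DESeq2 1.42.0 size factors, total counts, other pseudocounts, filters and thresholds, 2i−L as the reference, and other gene lengths.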

Additional observations from a re-analysis of the deposited data

Results flagged for a closer look

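Counts on the strand opposite to Mxd3, which the comparisons did not use, were higher than those on its own strand in every library. For 2i−L they were 462, for 2iJ 459, for 2iJ+B−A 515 and for TSC 556, beside 182, 163, 125 and 92 on its own strand. The opposite strand thus held 71.7%, 73.8%, 80.5% and 85.8% of the counts of both strands at Mxd3, whereas over all genes it held 3.02% to 3.32%. Of the other 9 members, Mlx had 1.90% to 3.00% of its counts on the opposite strand, and the remaining 8 stayed between 0 and 0.658%. Prelid1, which overlaps the end of Mxd3 on that strand by 104 bases, had 6430 to 6651 counts in the 4 libraries. Counted without regard to strand, Mxd3 held 166, 151, 117 and 87 counts in 2i−L, 2iJ, 2iJ+B−A and TSC, fewer than on its own strand. The part of Prelid1 in the opposite-strand counts was not tested.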

How the results depend on the processing

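No paired analysis was possible because each condition had 1 library, and for the same reason no replicate could be left out. Of 300 recomputed log2 ratios of members, 298 had the sign of the reported value and 3 lay on the other side of the threshold. The 300 include ratios under other filters on low counts, which equal the reported values by construction because the filter does not enter a ratio. They also include ratios with 2i−L as the reference, which are another comparison. Mxd1 and Mxi1 in 2iJ+B−A changed sign when 2i−L was made the reference (0.055 against −0.16 and −0.24 against 0.18), none of them called. In 2iJ against 2i−L, 0 members were called with a pseudocount of 2 CPM or where the whole interval had to lie beyond the threshold, and 2 at a log2 ratio of 0.5, beside 1 as reported. In 2iJ+B−A against 2iJ, 1 was called with a pseudocount of 2 CPM or by the whole interval, beside 2. With that pseudocount Mxd4 stood at 0.85 in 2iJ against 2i−L and 0.92 in 2iJ+B−A against 2iJ. In TSC, Mxd4 stood at 1.73 against 2i−L, beside 0.67 against 2iJ.

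The ratio of Myc to Mycn without length correction was 0.051, 0.0664, 0.33 and 3.76 in the 4 libraries, in the order used above. With the longest coding transcript as the length, chosen after seeing the data, the share of Myc among the activators was 4.38%, 5.74%, 22.0% and 77.1%. Over all genes in 2iJ against 2i−L, 175 were called higher and 131 lower; a pseudocount of 2 CPM gave 39 and 50, of 0.1 CPM 422 and 230, a filter of 5 CPM 105 and 87, a threshold of 0.5 1033 and 774, and the whole interval 40 and 52. In 2iJ+B−A against 2iJ, 828 and 452 became 455 and 256 with a pseudocount of 2 CPM, 501 and 263 by the whole interval, and 2048 and 1558 at 0.5. In TSC against 2iJ and against 2iJ+B−A, the threshold of 0.5 gave 4461 and 4288, beside 2774 and 2510, and 4164 and 4073, beside 2336 and 2311.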
